A study of Homo sapiens with 6 samples.

Results

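The V(D)J recombination and pre-B receptor genes examined here were 10 genes, taken by gene symbol from a table of 57820 genes: *RAG1*, *RAG2*, *DNTT*, *VPREB1*, *IGLL1*, *VPREB3*, *CD79A*, *CD79B*, *SYK* and *BLNK*. Total RNA-seq was performed on SEM cells, a human B-cell acute lymphoblastic leukemia (B-ALL) line that carries a KMT2A-AFF1 fusion, in 3 CTCF-WT and 3 CTCF-dRBR libraries. In both groups the endogenous CTCF carried a miniAID-mClover3 tag, a mutant OsTIR1 was expressed constitutively, and the auxin analog 5-Ph-IAA was given for 6 h to degrade the tagged CTCF. Doxycycline was then added for 18 h with 5-Ph-IAA kept on, to induce an HA-tagged CTCF from a transgene. The transgene encoded wild-type CTCF in CTCF-WT cells and CTCF without its RNA-binding region (dRBR, driven by TRE3G in the sample labels) in CTCF-dRBR cells, although the CTCF-WT sample labels name only the tagged endogenous protein. The comparison therefore asked how RNA levels of these genes differed between cells whose induced CTCF had or lacked that region. Each group was its own transduced cell line, so loss of the region cannot be told apart from other differences between the lines. Nothing in the labels says that the replicates were separate cultures, so p-values measure only the spread between these libraries, which may be technical.

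These genes act in order during early B-cell development. RAG1 and RAG2 form the recombinase that cuts DNA at the borders of immunoglobulin V, D and J segments, the non-homologous end joining machinery seals the cuts, and terminal deoxynucleotidyl transferase, the product of *DNTT*, adds untemplated bases at the joints of the heavy chain. Once a heavy chain is made, it pairs with the surrogate light chain of VpreB (*VPREB1*) and lambda5 (*IGLL1*), and the complex signals through CD79A and CD79B to the kinase SYK and the adaptor BLNK, a checkpoint that in normal precursors also lowers recombinase expression.

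In the RNA-seq data, expected counts summed to between 51732177 and 53166735 in the CTCF-WT libraries and to 30034505, 48912209 and 50457168 in CTCF-dRBR replicates 1, 2 and 3. CTCF-dRBR replicate 1 stood apart from the other 5, with Spearman's correlations across genes of 0.913 to 0.968 against 0.971 to 0.997 among all other pairs. *CTCF* RNA, which cannot separate the endogenous gene from the transgene in these counts, averaged 223 ± 22.0 CPM (counts scaled to library size with TMM factors) over the CTCF-WT libraries (SD, n = 3) against 263 ± 10.4 CPM over the CTCF-dRBR libraries. Of 7 B-cell precursor markers present in the table, 6 (*PAX5*, *EBF1*, *TCF3*, *LEF1* and *FLT3* among them) reached 1 CPM and *CD34* did not, no T-cell or erythroid marker did, and *LYZ*, *CSF1R*, *MS4A1* and *PDGFRB* did among 17 markers of myeloid, mature B and fibroblast cells. By limma-voom, 0 of 14044 genes passed an adjusted p of 0.05 (the edgeR quasi-likelihood test also gave 0), with 3569 genes at an unadjusted p under 0.05 (3460 by edgeR).

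Within each group the 10 genes spanned a wide range of levels. By TPM, which divides counts by transcript length and so permits comparison between genes, *CD79A* was the highest in CTCF-WT cells at 62.3 ± 6.71 (SD, n = 3). *VPREB1* at 45.4 ± 4.76 TPM and *IGLL1* at 39.2 ± 7.44 TPM followed, and their ranges overlapped. *CD79B* and *SYK* came next at 19.1 ± 3.199 and 18.7 ± 7.37 TPM, again with overlapping ranges. The signaling subunits and the surrogate light chain lay above the recombinase genes, since *RAG2* was at 1.21 ± 0.63 TPM and *RAG1* at 0.253 ± 0.127 TPM. *VPREB3*, which encodes a VpreB-related protein that binds the newly made heavy chain, lay between them at 4.68 ± 0.508 TPM. *BLNK*, at 0.303 ± 0.164 TPM, was near *RAG1*, and *DNTT* was the lowest at 0.0233 ± 0.00577 TPM. The CTCF-dRBR order was the same except that *RAG1* (0.763 ± 0.170 TPM) stood just above *BLNK* (0.733 ± 0.127 TPM), a pair whose ranges overlapped in both groups. Of 9 neighboring pairs in the order, the ranges overlapped for 3 in CTCF-WT and 6 in CTCF-dRBR.

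*RAG1* and *RAG2*, the recombinase pair, lie within 1 locus on chromosome 11 and are transcribed toward each other. In GRCh37, *RAG1* spans chr11:36531922-36614706 on the plus strand and *RAG2* spans chr11:36597124-36619829 on the minus strand. The 250 bases before the start of the canonical *RAG2* transcript are shown, because *RAG2* followed *RAG1* in the size of its log2 fold change among the 9 genes tested. Any match to the E-box CAGGTG (the E2A motif) or to the Ikaros motif TGGGAA would stand in capitals.
RAG2, chr11:36619787-36620036, minus strand: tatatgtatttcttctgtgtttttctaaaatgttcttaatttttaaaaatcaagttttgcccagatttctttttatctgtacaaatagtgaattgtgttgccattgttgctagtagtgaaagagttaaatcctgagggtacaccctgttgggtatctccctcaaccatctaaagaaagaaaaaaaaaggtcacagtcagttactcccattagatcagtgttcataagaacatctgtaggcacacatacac
The *RAG2* window held neither motif. Windows of the same build running from 250 bases before to 50 after the start were searched on both strands for 19874 protein-coding genes, and 20.4% held the E-box and 22.2% the Ikaros motif. In those windows of *RAG2*, *DNTT*, *VPREB1*, *IGLL1*, *VPREB3*, *CD79A*, *CD79B*, *SYK* and *BLNK*, 7 held the E-box (all but *RAG2* and *CD79B*), 1 held the Ikaros motif (*VPREB3*), and none held the EBF1 motif (TCCC and GGGA set 2 bases apart, in 1.35% of all windows) or the CTCF core (CC, any 3 bases, AGG, any base and GGC, in 5.93% of all windows). These counts describe letters in short windows and not binding.

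The RNAs of both recombinase subunits were higher in every CTCF-dRBR library than in any CTCF-WT library. *RAG1*, the subunit that holds the catalytic site, was at 1.63, 1.71 and 1.79 TMM-normalized CPM in CTCF-WT replicates 1 to 3 and at 4.25, 5.87 and 4.33 CPM in CTCF-dRBR replicates 1 to 3. The CTCF-WT libraries were close together, the groups did not overlap, and the mean was 2.81-fold higher in CTCF-dRBR (1.71 ± 0.0812 against 4.82 ± 0.917 CPM, SD, n = 3). The *RAG1* log2 fold change was 1.48 ± 0.20 (SE), with an adjusted p of 0.0959 by limma-voom, which did not pass 0.05. *RAG2*, the partner that binds modified histone H3 tails, was at 2.98, 3.27 and 3.98 CPM in CTCF-WT and at 10.8, 9.65 and 6.68 CPM in CTCF-dRBR. Again the groups did not overlap, with the highest CTCF-dRBR value in replicate 1. The *RAG2* mean was 2.65-fold higher in CTCF-dRBR, with a log2 fold change of 1.37 ± 0.24 (SE) and an adjusted p of 0.0959 by limma-voom. An adjusted p of 0.0959 was the lowest that any of the 14044 genes reached, and other genes shared it. By limma-voom, 21 genes had a smaller unadjusted p than *RAG1* and 109 a smaller one than *RAG2*. Among all 14044 genes tested, 122 had a higher log2 fold change than *RAG1* and 151 a higher one than *RAG2*, and 2.25% had a log2 fold change above 1.

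Both recombinase genes passed the threshold in some other fits. Without CTCF-dRBR replicate 1, *RAG1* had a log2 fold change of 1.55 ± 0.20 (SE) with a limma-voom adjusted p of 0.0312, and *RAG2* of 1.24 ± 0.22 (SE) with an adjusted p of 0.0438, where 3.9% of all genes tested passed. DESeq2 called *RAG1* and *RAG2* with all 6 libraries, where 11.5% of all genes passed, and so did limma-trend on log2(TPM + 1) and on log2(TPM + 0.1), where 5.93% and 5.41% passed. Protein-coding genes held 30.2 to 63.2% of TPM in the 6 libraries, and with TPM rescaled over those genes limma-trend called 0 genes, with an adjusted p of 0.153 for *RAG1* and *RAG2*. Voom with quality weights called 6 of the 9 genes tested (*RAG1*, *RAG2*, *BLNK*, *SYK*, *VPREB3* and, lower, *CD79A*), but it also called 68.2% of all genes. These values rested on 80 to 303 *RAG1* reads and 146 to 498 *RAG2* reads per library. The ratio of *RAG1* to *RAG2* counts within a library, which does not depend on library scaling, was 0.548, 0.524 and 0.450 in CTCF-WT and 0.393, 0.608 and 0.648 in CTCF-dRBR. The groups overlapped, and the log2 ratio differed by 0.09 (two-sided exact permutation test, p = 0.7).

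The nearest tested genes on either side of *RAG1*, *RAG2* aside, were also higher in CTCF-dRBR. *TRAF6*, which encodes a ubiquitin ligase, lies 99 bases before the outermost annotated boundary of *RAG1*, but far from the start of the canonical *RAG1* transcript. *TRAF6* was at 26.4, 22.7 and 26.2 CPM in CTCF-WT and 34.0, 38.0 and 32.5 CPM in CTCF-dRBR. *C11orf74* (*IFTAP*), which lies 1.21 kb beyond *RAG1* and overlaps *RAG2* on the opposite strand, was at 5.56, 5.53 and 6.89 CPM in CTCF-WT and 14.3, 10.49 and 7.61 CPM in CTCF-dRBR. Neither pair of groups overlapped, and 20.0% of all genes tested were likewise higher without overlap. The log2 fold changes of *TRAF6* and *C11orf74* were 0.48 ± 0.12 and 0.79 ± 0.26 (SE), smaller than those of *RAG1* and *RAG2*. The limma-voom adjusted p were 0.136 and 0.157. Their exons had 41.3% and 40.1% GC, and genes with 40 to 45% GC had a median log2 fold change of 0.19. The part of GC content in these differences was not tested. *RAG2* overlaps both *RAG1* and *C11orf74* on the opposite strand. The deposited tables are marked as stranded, but the strand setting of the counting is not given in the sources used here, so the assignment of reads in the overlaps could not be checked. *API5*, the next tested gene at 6714 kb, had a log2 fold change of -0.04 with overlapping groups.

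*DNTT* was barely detected. It lies at chr10:98064166-98098321 on the plus strand, 32.8 kb from *BLNK*. The libraries held 4, 6 and 2 *DNTT* reads in CTCF-WT and 4, 13 and 15 in CTCF-dRBR, where a floor of 3 counts corresponded to 0.0564 to 0.0999 CPM. The values in CPM were 0.0815, 0.117 and 0.0377 in CTCF-WT and 0.134, 0.252 and 0.291 in CTCF-dRBR. These ranges did not overlap, but the gene was under 1 CPM in all 6 libraries, so it was removed before the fit, and no fold change is given at 2 to 15 reads.

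**Figure D1:**
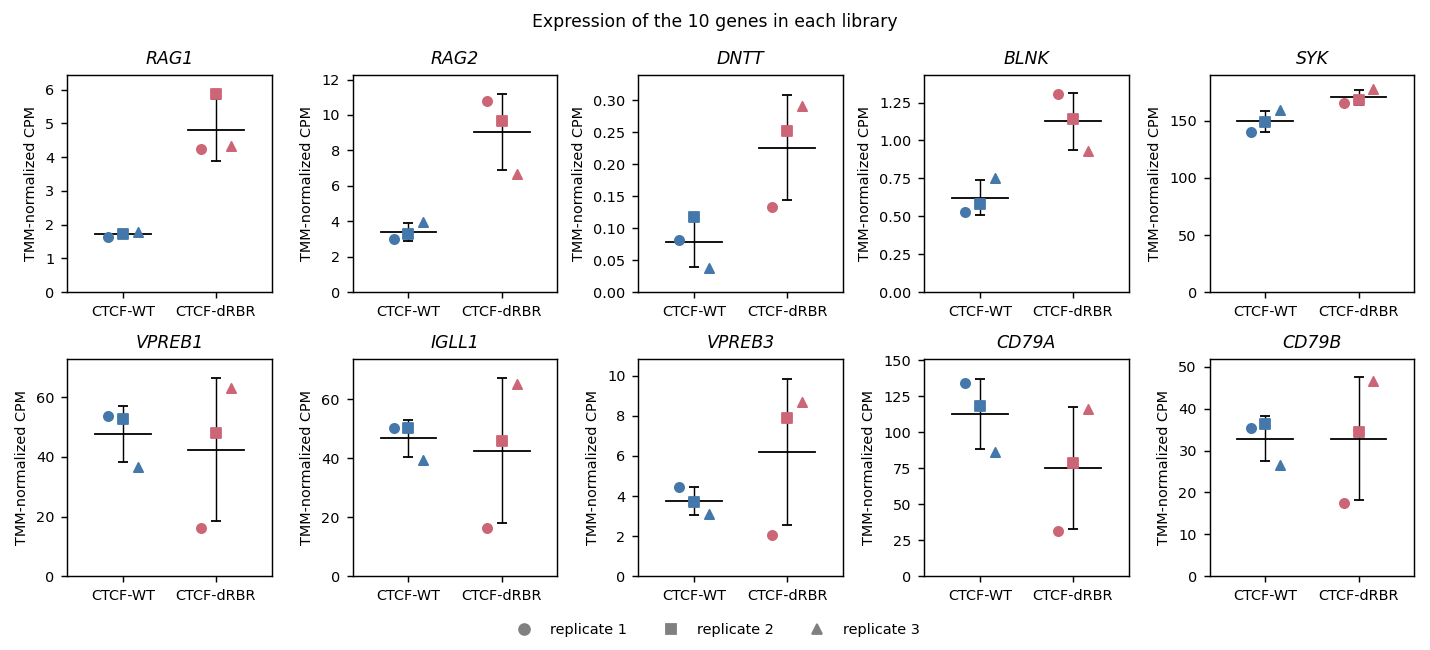
TMM-normalized CPM (vertical axes, from 0) of the 10 genes in the 6 libraries, with blue points for CTCF-WT, red points for CTCF-dRBR, marker shapes for replicates, and lines for the mean ± SD of 3 libraries. The groups are separate for *RAG1*, *RAG2*, *DNTT*, *BLNK* and *SYK*, while in the lower row CTCF-dRBR replicate 1 is the lowest library for all 5 genes.

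The surrogate light chain genes did not separate the groups. *VPREB1* (chr22:22599192-22599927, plus strand) and *IGLL1* (chr22:23915312-23922489, minus strand) encode its 2 parts, and the 250 bases before the canonical start of each are printed because their RNAs moved together across all 6 libraries, with the E-box in capitals.
VPREB1, chr22:22598948-22599197, plus strand: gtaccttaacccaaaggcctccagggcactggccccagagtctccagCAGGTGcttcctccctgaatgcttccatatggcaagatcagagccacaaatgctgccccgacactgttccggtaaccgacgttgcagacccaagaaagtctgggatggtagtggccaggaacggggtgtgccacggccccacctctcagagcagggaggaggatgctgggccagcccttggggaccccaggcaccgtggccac
IGLL1, chr22:23922478-23922727, minus strand: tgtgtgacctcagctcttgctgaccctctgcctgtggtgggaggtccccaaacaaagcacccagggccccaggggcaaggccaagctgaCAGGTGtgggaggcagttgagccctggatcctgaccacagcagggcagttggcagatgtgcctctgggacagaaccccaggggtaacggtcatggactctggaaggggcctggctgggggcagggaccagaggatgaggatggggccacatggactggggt
The E-box began at position -203 from the *VPREB1* start and at -161 from the *IGLL1* start. *VPREB1* was at 53.8, 52.6 and 36.7 CPM in CTCF-WT and at 16.3, 48.1 and 63.0 CPM in CTCF-dRBR. *IGLL1* was at 50.2, 50.3 and 39.5 CPM in CTCF-WT and at 16.4, 45.8 and 65.3 CPM in CTCF-dRBR. For both genes the lowest and the highest of the 6 libraries were CTCF-dRBR replicates 1 and 3, so the spread inside that group exceeded the difference between the groups. The log2 fold changes were -0.26 ± 0.47 (SE) for *VPREB1* and -0.25 ± 0.45 for *IGLL1*, with limma-voom adjusted p of 0.700 and 0.707. *IGLL1* was the only one of the 10 genes with fractional expected counts, which arise where reads also match near-identical sequence, so its values are less certain. The ratio of *VPREB1* to *IGLL1* counts nevertheless stayed between 0.929 and 1.07 in the 6 libraries, and the log2 ratio differed by -0.02 between the groups (exact permutation test, p = 0.9).

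*VPREB3* (chr22:24094930-24096612, minus strand) had a split CTCF-dRBR group. It was at 4.46, 3.70 and 3.09 CPM in CTCF-WT and at 2.04, 7.91 and 8.70 CPM in CTCF-dRBR. CTCF-dRBR replicates 2 and 3 were above all CTCF-WT libraries and replicate 1 was below them, and the log2 fold change was 0.55 ± 0.55 (SE) with a limma-voom adjusted p of 0.487. Without CTCF-dRBR replicate 1 the log2 fold change was 1.16 ± 0.17 and the adjusted p 0.0387. Measured inside each library, 1 *VPREB3* read was matched by 12.1, 14.2 and 11.9 *VPREB1* reads in CTCF-WT and by 7.98, 6.08 and 7.25 in CTCF-dRBR. The ratio was lower in every CTCF-dRBR library, replicate 1 included, and the log2 ratio differed by -0.84. The exact permutation test gave p = 0.1, the smallest value that 3 against 3 libraries can give, and 0.167 after Benjamini-Hochberg adjustment over the 5 gene pairs compared.

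The receptor's signaling subunits showed a similar pattern of spread. *CD79A* (chr19:42381349-42385439, plus strand), which encodes Ig-alpha, was at 134, 118 and 86.4 CPM in CTCF-WT and at 31.4, 78.4 and 116 CPM in CTCF-dRBR. *CD79B* (chr17:62006098-62009696, minus strand), which encodes Ig-beta, was at 35.5, 36.3 and 26.6 CPM in CTCF-WT and at 17.5, 34.5 and 46.6 CPM in CTCF-dRBR. Both sets of groups overlapped in CPM, and CTCF-dRBR replicate 1 was again the lowest library. By TPM the *CD79B* groups did not overlap, at 15.7 to 22.0 TPM in CTCF-WT and 24.4 to 35.7 TPM in CTCF-dRBR. However, the median log2 fold change of all genes tested was 0.40 on log2(TPM + 1). With TPM rescaled over protein-coding genes, that of *CD79B* was 0.23 (limma-trend, adjusted p = 0.557). The log2 fold change was -0.70 ± 0.45 (SE) for *CD79A* and -0.03 ± 0.34 for *CD79B*, with limma-voom adjusted p of 0.315 and 0.959. The 2 genes encode the chains of 1 heterodimer. The ratio of *CD79A* to *CD79B* counts was 3.78, 3.26 and 3.25 in CTCF-WT and 1.80, 2.27 and 2.49 in CTCF-dRBR. These ranges did not overlap, the log2 ratio differed by -0.66, and the exact permutation test gave p = 0.1, the smallest possible, with 0.167 over the 5 pairs. The exons of the 2 genes have like GC contents (60.6% and 61.3%), and after removal of the trend over GC content described below the log2 ratio differed by -0.70, again without overlap.

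**Figure D2:**
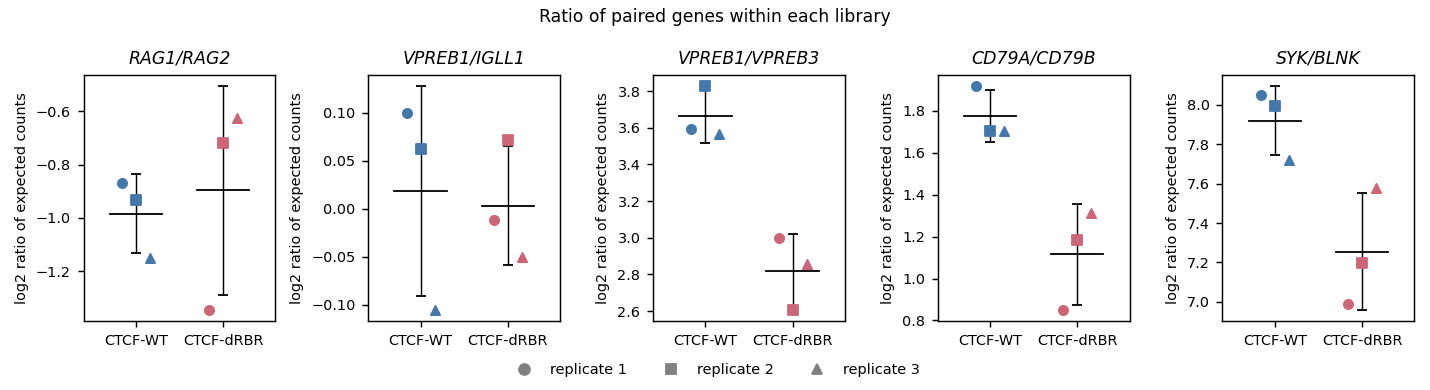
Log2 ratio of expected counts of 5 gene pairs (vertical axes, each with its own range that does not start at 0) within each library, with CTCF-WT in blue, CTCF-dRBR in red, marker shapes for replicates and lines for the mean ± SD of 3 libraries. The groups overlap for *RAG1*/*RAG2* and *VPREB1*/*IGLL1* and are separate for the other 3 pairs, each with an exact permutation p of 0.1.

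*SYK*, the kinase recruited to phosphorylated CD79A and CD79B, and *BLNK*, the adaptor that it phosphorylates, were both higher in CTCF-dRBR. *SYK* (chr9:93564069-93660831, plus strand) was at 140.3, 149 and 159 CPM in CTCF-WT and at 166, 168 and 178 CPM in CTCF-dRBR. The groups did not overlap, but the difference was small, with a 1.14-fold higher mean, a log2 fold change of 0.19 ± 0.09 (SE) and a limma-voom adjusted p of 0.222. By TPM the *SYK* groups overlapped, since CTCF-WT replicate 3 at 26.97 TPM exceeded CTCF-dRBR replicate 3 at 25.95 TPM. *BLNK* (chr10:97948927-98031344, minus strand) was at 0.530, 0.584 and 0.755 CPM in CTCF-WT and at 1.304, 1.14 and 0.932 CPM in CTCF-dRBR. The *BLNK* groups did not overlap and the mean was 1.81-fold higher, with a log2 fold change of 0.82 ± 0.25 (SE) and a limma-voom adjusted p of 0.150. *BLNK* reached 1 CPM only in CTCF-dRBR libraries, so it entered the fit through the group in which it was higher, and it rested on 26 to 59 reads per library. *ZNF518A*, a gene on the opposite strand that overlaps *BLNK*, was also higher in every CTCF-dRBR library, with a log2 fold change of 0.43 ± 0.18 (SE). The *SYK* to *BLNK* ratio was lower in CTCF-dRBR by 0.67 on the log2 scale (exact permutation test, p = 0.1, and 0.167 over the 5 pairs), and by 0.36 after removal of the GC trend.

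Counted together, 9 of the 10 genes passed the filter on low counts. Of these, 0 passed an adjusted p of 0.05 by limma-voom, as for all genes (0.0%), and 0 by the edgeR quasi-likelihood test. An unadjusted p under 0.05 was reached by 3 of 9 (*RAG1*, *RAG2* and *BLNK*), against 25.4% of all genes tested. The groups did not overlap for 4 of 9 (these 3 and *SYK*), all higher in CTCF-dRBR, against 37.5% of all genes in either direction and 20.0% higher. The median log2 fold change of the 9 was 0.19, against -0.01 for all genes tested. *BLNK* is counted here although it passed the filter only through CTCF-dRBR, and without it the counts were 2 and 3 of 8. No test of these counts against the shares of all genes was made.

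The 10 genes fell into 2 sets by the GC content of their exons, and the libraries differed along the same axis. *RAG2*, *RAG1*, *BLNK*, *DNTT* and *SYK* had 41.8, 42.1, 44.6, 45.3 and 50.5% GC, and *VPREB3*, *VPREB1*, *CD79A*, *CD79B* and *IGLL1* had 57.5, 58.5, 60.6, 61.3 and 62.8%. Across genes, the deviation of a library from the mean of all 6 followed GC content, with Spearman's rho of 0.709, 0.674 and 0.339 in CTCF-WT replicates 1 to 3 and -0.780, -0.417 and 0.504 in CTCF-dRBR replicates 1 to 3. The difference between CTCF-dRBR replicate 1 and the other 2 CTCF-dRBR libraries was a median log2 CPM of -1.39 over genes with at least 60% GC and 0.28 over genes with 40 to 45% GC. For the 5 GC-rich members this difference was -1.20 (*CD79B*), -1.60 (*CD79A*), -1.73 (*IGLL1*), -1.76 (*VPREB1*) and -2.01 (*VPREB3*). *VPREB3* and *VPREB1* lay below the 10th percentile of genes with 55 to 60% GC, which was -1.65. For *RAG1* it was -0.25, for *RAG2* 0.43, for *BLNK* 0.33 and for *SYK* -0.06. The part of GC content in the fold changes of single genes was not tested beyond the fit described next.

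**Figure D3:**
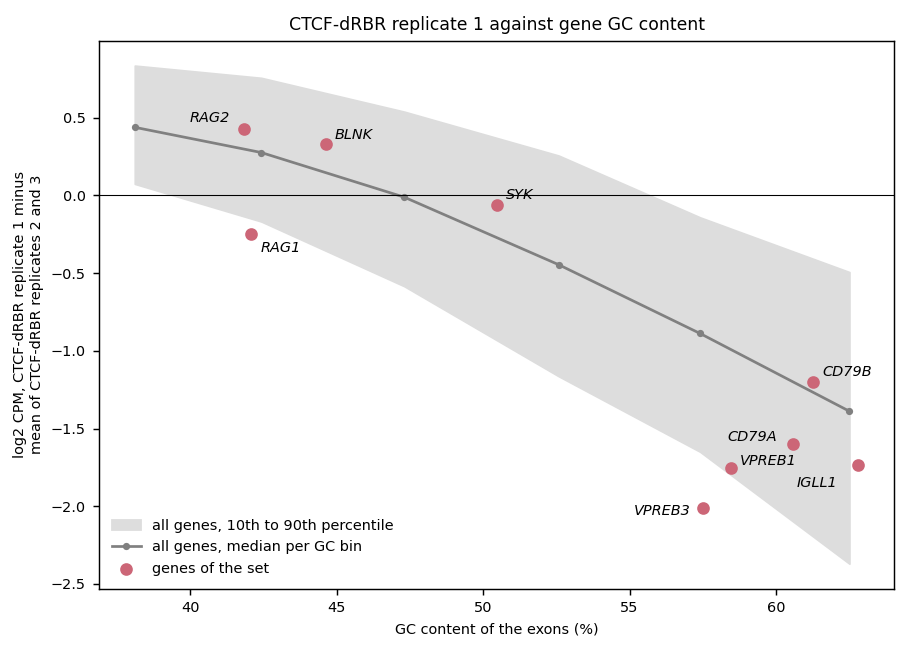
Difference in log2 CPM between CTCF-dRBR replicate 1 and the mean of CTCF-dRBR replicates 2 and 3 (vertical axis) against exon GC content in percent (horizontal axis), with the median (gray line) and the 10th to 90th percentile (gray band) of all genes per GC bin. The 5 genes with at least 57.5% GC lie between -1.20 and -2.01, while *RAG1*, *RAG2*, *BLNK* and *SYK* lie between -0.25 and 0.43.

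When a loess trend over GC content was removed from each library, the recombinase genes kept their difference and several receptor genes moved upward. By limma-voom, 4 of 9 genes then passed an adjusted p of 0.05, against 9.24% of all genes tested: *RAG1* with a log2 fold change of 1.26 ± 0.20 (SE, adjusted p = 0.0248), *RAG2* with 1.15 ± 0.15 (0.0190), *CD79B* with 0.66 ± 0.07 (0.0190) and *IGLL1* with 0.51 ± 0.11 (0.0392). *VPREB3* at 1.07 ± 0.30, *BLNK* at 0.69 ± 0.17 and *SYK* at 0.33 ± 0.09 did not pass. *VPREB1* at 0.29 ± 0.19 and *CD79A* at -0.02 ± 0.12 did not pass either, and they were the only ones of the 9 whose groups still overlapped. The other 7 were higher in every CTCF-dRBR library, against 17.7% of all genes higher without overlap. These calls depended on single libraries. In a repeat chosen after seeing the data, 0 of 9 genes passed without CTCF-WT replicate 1 or 2 or without CTCF-dRBR replicate 2 or 3, and *CD79B* and *RAG2* passed without CTCF-WT replicate 3. Without CTCF-dRBR replicate 1, 8 of 9 passed (all but *CD79A*), against 23.6% of all genes.

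**Figure D4:**
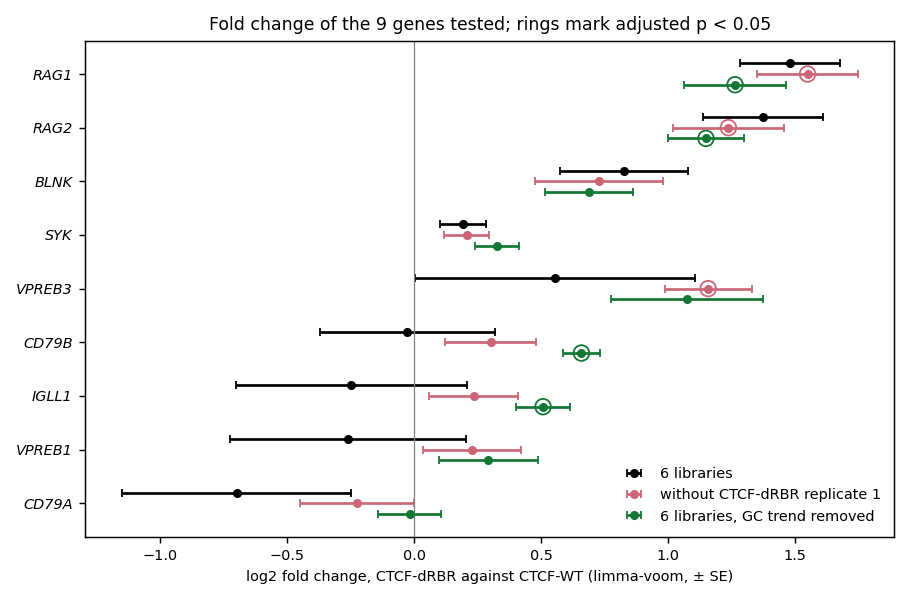
Log2 fold change of CTCF-dRBR against CTCF-WT (horizontal axis, ± SE) for the 9 genes tested, in limma-voom with all 6 libraries (black), without CTCF-dRBR replicate 1 (red) and with the GC trend removed (green), where rings mark an adjusted p under 0.05. *RAG1* and *RAG2* stay above 1.1 in all 3 fits, while *CD79B*, *IGLL1* and *VPREB1* lie below 0 in the first fit and above 0 in the other 2.

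The genes that seal the cuts made by the recombinase showed no common direction. Of 18 listed recombination partners, all were tested, 0 passed an adjusted p of 0.05 by limma-voom, and 5 had an unadjusted p under 0.05 (2 higher and 3 lower in CTCF-dRBR, against 12.6% and 12.8% of all genes). The median log2 fold change was 0.09. *ATM*, the kinase that senses the breaks, averaged 231 ± 8.43 CPM in the CTCF-WT libraries and 328 ± 26.4 CPM in the CTCF-dRBR libraries (SD, n = 3), and *DCLRE1C*, which encodes the nuclease Artemis that opens hairpin ends, was at 69.6 ± 5.26 and 104 ± 22.2 CPM. Both sets of groups were separate, with log2 fold changes of 0.50 ± 0.10 and 0.56 ± 0.17 (SE) and limma-voom adjusted p of 0.1004 and 0.149. *NBN* and *XRCC4* had log2 fold changes of 0.34 and 0.45 with overlapping groups. In the other direction, *PRKDC*, which encodes the catalytic subunit of DNA-PK that activates Artemis, averaged 1870.4 ± 18.6 CPM in the CTCF-WT libraries and 1550.5 ± 108 CPM in the CTCF-dRBR ones, without overlap and with a log2 fold change of -0.27 ± 0.09. *H2AFX*, the histone variant phosphorylated around breaks, was at 129 ± 22.2 and 55.3 ± 33.2 CPM, also without overlap, and *C9orf142* (*PAXX*, an end-joining factor) and *POLL* (a gap-filling polymerase) overlapped at log2 fold changes of -1.32 and -1.02. The 4 named genes on the higher side had exon GC contents of 35.2 to 41.8%, and *H2AFX*, *C9orf142*, *POLL* and *PRKDC* had 66.8, 65.0, 56.7 and 43.0%. With the GC trend removed, *DCLRE1C* (0.33, adjusted p = 0.0464) and *H2AFX* (-0.41, adjusted p = 0.0482) passed by limma-voom, and *PRKDC* was at -0.47 (adjusted p = 0.0654). In that fit *ATM* shrank to 0.19 (adjusted p = 0.209), *NBN* to -0.02 and *XRCC4* to 0.08. *C9orf142* and *POLL* were at -0.44 and -0.55, and none of these others passed.

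Of 30 other listed pre-B receptor signaling genes, activating and inhibitory and not all downstream of *SYK*, 28 were tested. By limma-voom, 0 passed an adjusted p of 0.05. An unadjusted p under 0.05 was reached by 11 of 28 (against 25.4% of all genes), of which 10 were higher (against 12.6%), and the median log2 fold change was 0.14. *FCGR2B*, the inhibitory Fc receptor of B cells, averaged 4.396 ± 0.182 CPM in the CTCF-WT libraries and 9.85 ± 1.73 CPM in the CTCF-dRBR libraries (SD, n = 3), with a log2 fold change of 1.16 ± 0.18 (SE) and an adjusted p of 0.0959, and it passed without CTCF-dRBR replicate 1 (adjusted p = 0.0214) and with the GC trend removed (adjusted p = 0.0190). *LAIR1*, another inhibitory receptor, was at 15.8 ± 0.249 and 24.3 ± 3.10 CPM, with a log2 fold change of 0.63 ± 0.14. It passed in the same 2 fits (limma-voom adjusted p = 0.0317 and 0.0190). The adaptors *PIK3AP1* (449.7 ± 34.3 and 617 ± 13.6 CPM) and *DAPP1* (15.0 ± 1.16 and 23.4 ± 1.86 CPM), which act around PI3K, were higher without overlap, at log2 fold changes of 0.46 ± 0.09 and 0.63 ± 0.13. *PIK3AP1* passed with the GC trend removed (limma-voom adjusted p = 0.0234) and *DAPP1* without CTCF-dRBR replicate 1 (limma-voom adjusted p = 0.0475). On the other side, *HRAS* and *VAV1* had log2 fold changes of -0.80 and -0.38, and *PTPN6*, the phosphatase SHP-1 that opposes SYK, had -0.36. *HRAS* and *PTPN6* turned to 0.11 and 0.38 with the GC trend removed, and *VAV1* shrank to 0.00.

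**Figure D5:**
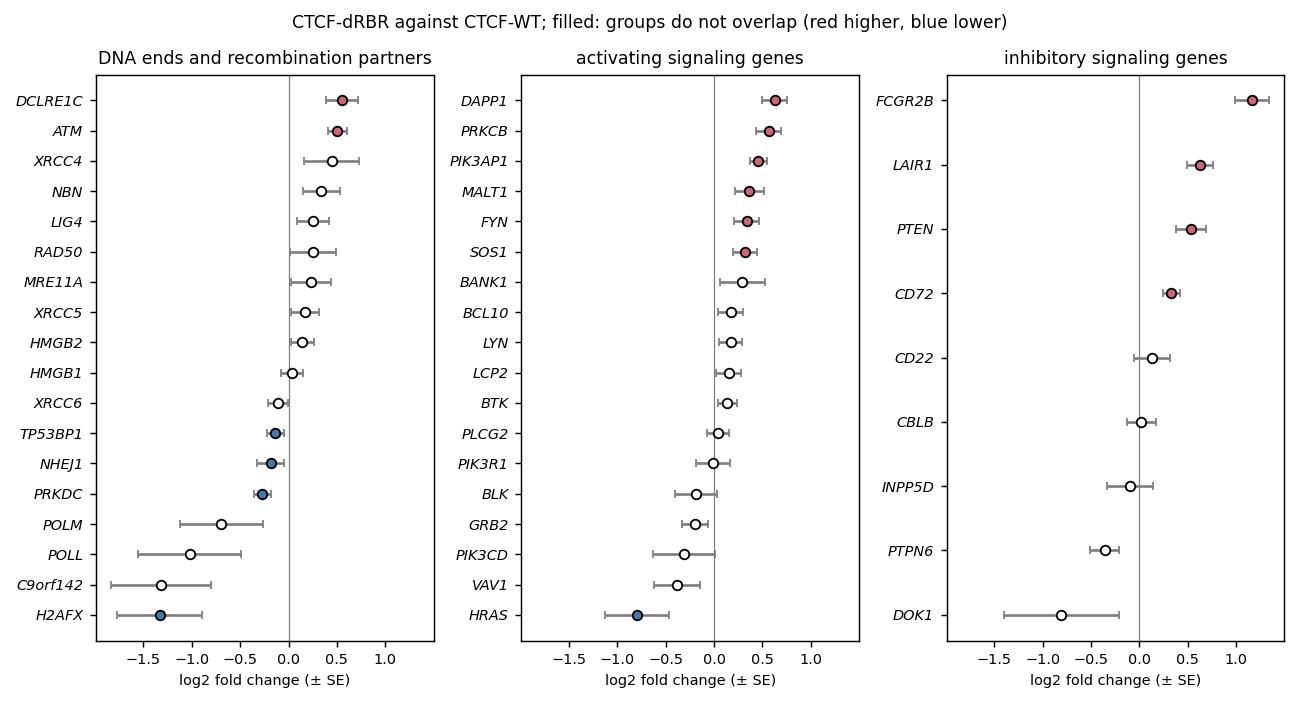
Log2 fold change of CTCF-dRBR against CTCF-WT by limma-voom (horizontal axes, ± SE) for the listed recombination partners and the activating and inhibitory signaling genes that were tested, 1 of them not drawn. Points are filled where all CTCF-dRBR libraries lay above, or all lay below, every CTCF-WT library in CPM. The partners have 2 filled points above 0 and 4 below, and the signaling genes have 10 above and 1 below (20.0% and 17.5% of all genes tested), with none past an adjusted p of 0.05.

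The listed immunoglobulin genes were mostly constant-region genes, with no V, D or J segment among them. Most stayed under 1 CPM in every library, while *IGHM*, *IGHD*, *IGLC1* and *IGLL5* reached it. Of 11 listed genes, 4 were tested, 0 passed an adjusted p of 0.05 and 0 had an unadjusted p under 0.05 by limma-voom. *IGHM*, which encodes the mu heavy chain of the pre-B receptor, averaged 146 ± 5.24 CPM in the CTCF-WT libraries and 141.5 ± 49.9 CPM in the CTCF-dRBR libraries (SD, n = 3). In CTCF-dRBR it ranged from 89.9 CPM in replicate 1 to 189 CPM in replicate 3, the same order as for *VPREB1* and *IGLL1*. *IGHD*, *IGLC1* and *IGLL5*, a gene near-identical to *IGLL1* in part, had log2 fold changes of -0.43, -0.23 and -1.43, all with overlapping groups. With the GC trend removed, *IGHM*, *IGHD* and *IGLC1* turned positive (0.59, 0.27 and 0.31) and none passed.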

How the data were processed

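Total RNA from 6 libraries was sequenced after ribosomal RNA depletion. The authors trimmed reads with Trim Galore 0.6.3, aligned them to GRCh37 (hg19) with STAR 2.7.9a and quantified genes with RSEM 1.3.1 on Gencode v19. They deposited 2 tables, 1 of RSEM expected counts, which are estimated counts that need not be whole, and 1 of TPM. The methods describe paired-end reads and the labels single-end reads. Here 92 spike-in rows were left out, genes that stayed under 1 CPM in every library were dropped, and the 14044 remaining genes were fitted with limma-voom (limma 3.58.1, edgeR 4.0.16, TMM factors, R 4.3.3), CTCF-dRBR against CTCF-WT, with Benjamini-Hochberg adjustment over all genes. Alternatives used edgeR, DESeq2 1.42.0, voom with quality weights, limma-trend on log2 TPM (pseudocount 1 or 0.1), other scalings and filters, single libraries left out, a replicate block, and removal of a loess trend over GC content (span 0.5). DESeq2 and edgeR's own test used rounded counts. Gene pairs were compared by exact permutation tests of log2 count ratios.

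Coordinates, GC content (for 97.2% of genes tested) and promoter windows came from Gencode v44 lifted to GRCh37, matched by Ensembl identifier, so gene ends can differ from those the authors counted. Simulated counts in which 200 genes had known changes were also fitted. The fits were limma-voom, edgeR, DESeq2, quality weights, the replicate block, GC trend removal and limma-trend on log2 CPM. These counts held no GC trend, and the other scalings, filters, TPM scales and fits with libraries left out were not run on them. The 10 genes and the partner, signaling, immunoglobulin and marker lists were chosen with earlier results of these data known. From the 3 lists, up to 4 genes in each direction with the smallest p were named (1 of these genes and 1 promoter window are not reported here), and other genes named were the nearest tested or overlapping genes and those most alike to *RAG1*, *VPREB1* and *CD79A*. The floor of 3 counts covers counting error only.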

Additional observations from a re-analysis of the deposited data

How the results depend on the processing

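Replicate numbers were shared between the groups but did not pair the libraries: deviations of same-numbered libraries correlated at -0.34, 0.10 and -0.47. With the replicate number as a block, 0 of 9 genes passed, 0 of 14044 genes passed, the adjusted p of *RAG1* and *RAG2* was 0.419, and 1423 genes had an unadjusted p under 0.05. The log2 fold changes of *RAG1*, *RAG2*, *BLNK*, *SYK* and *VPREB3* were above 0 in every fit, at 0.49 to 1.74, 1.05 to 1.80, 0.42 to 1.11, 0.11 to 0.73 and 0.22 to 1.40.

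The number of the 9 genes called was 2 by DESeq2, 6 with quality weights (of 9583 genes, 68.2%), 2 on either TPM scale, 0 to 3 with single libraries left out, and 4 with the GC trend removed. With the GC trend removed it was 8 when CTCF-dRBR replicate 1 was left out and 2 when CTCF-WT replicate 3 was. Over all genes the counts were 1619 by DESeq2, 833 and 760 on log2(TPM + 1) and log2(TPM + 0.1), 0 to 535 with single libraries left out (535 without CTCF-dRBR replicate 1), 1261 with the GC trend removed, and then 3151, 1 and 688 without CTCF-dRBR replicate 1, CTCF-WT replicate 2 and CTCF-WT replicate 3. The TPM fits moved the median of all genes by 0.40 and 0.54. Recombination partners called were 3 by DESeq2, 12 with quality weights, 2 on either TPM scale, 0 to 1 with single libraries left out, 2 with the GC trend removed and 7 when CTCF-dRBR replicate 1 was also left out. For the signaling genes these were 7, 18, 2, 0 to 3, 5 and 12, and 1 immunoglobulin gene was called with quality weights.

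The fold changes of 4 genes changed sign. *IGLL1* was at 0.22 on both TPM scales, -0.66 to 0.23 with single libraries left out, 0.51 with the GC trend removed, 0.50 with block and GC removal, and 0.47, 0.51, 0.55, 0.60, 0.45 and 0.47 with GC removal and, in turn, without CTCF-WT replicates 1 to 3 and CTCF-dRBR replicates 1 to 3. In the same order *VPREB1* was at 0.14 and 0.14, -0.64 to 0.23, 0.29, 0.31 and then 0.32, 0.34, 0.22, 0.50, 0.18 and 0.18. *CD79A* was at 0.079 on both TPM scales, and at 0.099 and 0.030 with GC removal without CTCF-dRBR replicate 1 and CTCF-WT replicate 1. *CD79B* was at 0.0051 by edgeR, 0.0033 by DESeq2, 0.67 and 0.69 on the TPM scales, 0.23 with TPM rescaled over protein-coding genes, 0.0092 with upper-quartile scaling, 0.035 with library size only, -0.34 to 0.30 with single libraries left out, 0.66 with the GC trend removed, 0.65 with block and GC removal, and 0.63, 0.69, 0.66, 0.64, 0.66 and 0.68 with GC removal and single libraries left out as above. The cause of these changes was not tested.

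The log2 ratio difference of *RAG1*/*RAG2* was -0.20 by TPM and -0.048 to 0.31 with single libraries left out, and that of *VPREB1*/*IGLL1* was -0.078 to 0.025 with single libraries left out, -0.09 by TPM and -0.24 with the GC trend removed. The other 3 ratios were lower in CTCF-dRBR in every alternative. With CPM per kilobase of exon, 7 of 9 neighboring pairs kept their order, with *SYK* above *CD79B* and *RAG1* above *BLNK*. *DNTT* had 2 to 15 reads per library and *BLNK* 26 to 59. Without CTCF-dRBR replicate 1 the SE fell for the 5 GC-rich genes, as from 0.45 to 0.18 for *IGLL1*.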

Other observations

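Among 17 distinct tested genes nearest to the 10 genes, the recombinase locus included, 4 were higher in every CTCF-dRBR library (*TRAF6*, *C11orf74*, *KB-208E9.1* and *AUH*), a share near the 20.0% of all genes tested, none was lower in every one, and 13 overlapped. *KB-208E9.1*, a long noncoding RNA 0.577 kb from *IGLL1*, was at 0.448, 0.506 and 0.453 CPM in CTCF-WT and 0.836, 0.969 and 1.22 CPM in CTCF-dRBR. It had a log2 fold change of 1.10 and a limma-voom adjusted p of 0.116, and it passed the filter on low counts only through CTCF-dRBR libraries. *IGLL1* itself overlapped between the groups. *AUH*, 315 kb from *SYK*, had a log2 fold change of 0.55. *RPS19* and *ARHGEF1*, within 5 kb of *CD79A* on either side, had log2 fold changes of -0.90 and -0.73, near that of *CD79A*, and all 3 had 56.5 to 60.6% GC.

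Genes whose log2 CPM followed 1 of the 10 genes most closely were found among 9181 genes with a mean of at least 10 CPM, over 6 libraries that share depth and GC differences, so the correlations are descriptions. For *RAG1* these were *PTPRB* (Pearson's r 0.999), *PDXDC2P* (0.995) and *LINC00426* (0.995), with log2 fold changes of 0.38, 0.32 and 0.72. For *VPREB1* they were *RNF122* (1.000), *ZSWIM8* (0.998) and *MMP11* (0.998), and for *CD79A* they were *CHTF18* (0.999), *BAG6* (0.999) and *ZBTB7B* (0.999).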
